A study of Mus musculus with 7 samples.

Results

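The 4 wild-type (WT) arrays of a study of mouse hematopoietic stem cells (HSCs) were described here as a baseline, without a genotype contrast. They are the arrays titled as wild-type HSC replicates 1 to 4, out of 7 arrays in the series; the other 3 carry RNA of HSCs with a knockout of Ahr, the aryl hydrocarbon receptor gene. The table held 41155 probe sets. Rows that the platform annotation ties to exactly 1 gene were kept (23521), and for each gene the probe set of highest mean log2(intensity + 1) over the 4 WT arrays was taken, which gave 22180 genes.

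All mice were 8 weeks old and had a C57BL/6J genetic background. The WT mice carried wild-type Ahr, and the Ahr-KO mice the Ahr knockout. Bone marrow was depleted of lineage-positive cells, HSCs were sorted by SLAM-family surface markers, and biotinylated cDNA made from their total RNA was hybridised to 1-colour Affymetrix arrays. Neither the mice or pools behind the single arrays nor their sex are given in the labels, so the spread between arrays may be technical in part.

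HSCs sit at the top of blood formation: each can renew itself and give rise to every blood lineage. Most of them in adult marrow are out of the cell cycle, and they are held in that state by transcription factors such as Hlf, Meis1 and Mecom and by niche signals received through surface receptors such as Kit. The SLAM code sorts them as cells that carry CD150, encoded by Slamf1, and lack CD48 and CD244.

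Signal is given as intensity on the linear scale of the table, and means ± SD as log2(intensity + 1) over the 4 WT arrays (SD, n = 4 throughout). The table has no detection call. Olfactory receptor genes (Olfr) are transcribed mainly in the nose, so the 95th percentile of 1108 Olfr probe sets on each array served as a background mark. The mark stood at an intensity of 39.1, 42.8, 42.4 and 33.9 on WT replicates 1 to 4. Probe sets differ in length, sequence and copy number of their targets, so an order of probe sets by signal is an order of brightness and not of transcript number.

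Of the 22180 genes, 3790 (17.1%) lay above the mark on all 4 WT arrays and 9468 (42.7%) on none. Another 3631 lay above it on 1 array, 2730 on 2 and 2561 on 3. Of the Olfr probe sets themselves, 20 (1.81%) lay above on all 4. Dkkl1 was just inside, with 42.81 on WT replicate 2, and Csnk1g2 just outside, with 42.78 on the same array. The call had no test: it says that a value exceeded the mark on every array.

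The 4 arrays were not alike. Median intensity was 19.4, 16.9, 19.9 and 22.1, and 35.8%, 30.1%, 33.6% and 44.4% of genes lay above each array's own mark. Of the 2561 genes above the mark on exactly 3 arrays, 1252 (48.9%) were missing on WT replicate 2 and 149 (5.82%) on WT replicate 4. Pearson correlations across the 22180 genes, which are not independent replicates, were 0.607 to 0.609 for the 3 pairs with WT replicate 2 and 0.674 to 0.723 for the other 3. Without WT replicate 2, 5043 genes lay above the mark on the remaining 3 arrays.

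The labelled identity was first read against 4 markers of HSCs and progenitors. Kit, the receptor for stem cell factor, had intensities of 747, 1186, 788 and 1258 on WT replicates 1 to 4. Hlf, a PAR bZIP transcription factor active in HSCs, had 560.4, 565, 662 and 900.4. Mllt3, a chromatin reader that helps to maintain HSCs, had 496, 863, 989 and 664. Cd34, a sialomucin of progenitor and endothelial cells, had 579, 704, 896 and 841. All 4 genes lay above the mark on all 4 arrays, and on all 3 Ahr-KO arrays. Their means were 9.92 ± 0.39, 9.37 ± 0.32, 9.51 ± 0.44 and 9.54 ± 0.28. WT replicate 1 had the lowest value of each of the 4 genes, and no single array had the highest.

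The genes that define the sort itself were less often above the mark. Slamf1, which encodes CD150, had 4.56, 23.3, 7.81 and 73.3, above the mark on WT replicate 4 alone, and it lay above on all 3 Ahr-KO arrays. Cd48 had 11.5, 171, 679 and 12.2, above the mark on WT replicates 2 and 3. Cd244a, which encodes CD244, had 21.5, 28.5, 36.4 and 24.8, below the mark on all 4 arrays. The transcript of the positive sort marker was therefore under the mark on 3 of 4 arrays, and that of the negative marker CD48 above it on 2. Surface protein was not measured.

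Of 23 measured genes in a list of HSC regulators, 15 (65.2%) lay above the mark on all 4 arrays and none was below it on all 4. The shares of all genes were 17.1% and 42.7%. Myb, a transcription factor needed in definitive blood progenitors, had 1425, 797, 1418 and 1910.4. Lyl1, a bHLH factor of the Tal1 family, had 1393, 690.0, 756 and 1218. Meis1, a homeobox partner of Hox proteins, had 380.0, 521, 641 and 647, lowest on WT replicate 1. Prdm16, a zinc finger regulator of HSC maintenance, had a low and even signal of 58.8, 72.7, 74.1 and 78.4 in 1 probe set. Its other probe set had 22, 33.4, 17.2 and 46.8, above the mark on 1 array, so the call and the evenness rest on the choice of probe set. Erg, an ETS factor, was highest on WT replicate 2 (739, 1121, 457 and 748), whereas Etv6, another ETS factor, was lowest there (842, 377, 870.2 and 810.1).

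Several regulators depended on the array. Gata2, a zinc finger factor that keeps HSCs from cycling, had 749, 233, 3932 and 477, and its WT replicate 3 value stood far above the other 3. Runx1, Tal1, Hoxa9, Hoxb4, Ikzf2 and Mecom lay above the mark on 3 arrays, and the array below it was WT replicate 2 for all 6. Gfi1, a zinc finger repressor, also lay above on 3, and fell short on WT replicate 1 (26.3, 83.1, 96.6 and 36.8). Runx1, a core factor of blood formation, had 577, 27.1, 239.6 and 309. Hoxa9 had 56.9, 6.55, 385 and 678, and Mecom, a zinc finger regulator of long-term HSCs, had 187, 34.7, 60.1 and 267. Without WT replicate 2, 21 of the 23 regulators lay above the mark on all the remaining arrays, beside 22.7% of all genes. Bmi1, a Polycomb protein needed for self-renewal, lay above the mark on WT replicate 1 alone (89.9, 27.3, 4.66 and 6.87).

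Of 19 measured genes in a list of HSC surface markers, 7 (36.8%) lay above the mark on all 4 arrays, beside 17.1% of all genes. They were Kit, Cd34, Cd47, Eng, Cxcr4, Itga6 and Procr. The list also holds Cd48 and Cd244a, whose proteins the SLAM sort selects against, and the lymphoid marker Il7r. Its share above the mark is therefore not a share of HSC markers detected. Cd47, the signal that protects cells from phagocytosis, was even, with 658, 614, 669.9 and 830.0. Procr, the endothelial protein C receptor used to enrich HSCs, had 94.2, 125, 58.5 and 90.8. Cxcr4, the receptor for the niche chemokine Cxcl12, was highest on WT replicate 1 (424, 86.7, 103 and 169). Flt3 and Esam each lay above the mark on WT replicate 4 alone, with 144 and 309 there. Il7r, a marker of lymphoid progenitors, and Thy1 lay below it on all 4 arrays. Ly6a, also used as an HSC marker, was not analysed here.

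The window before the start site of these genes differed among them in CpG content, the feature of CpG island promoters. RefSeq promoter sequences (GRCm38.p6) were matched by Entrez ID to 2839 of the 3443 protein-coding genes above the mark on all 4 arrays. The 250 bases before each start were read. They are printed 5′ to 3′ on the gene's strand with each CG in capitals. The genes shown are 3 of the 4 markers of HSCs and progenitors, the steadiest ribosomal protein gene by brightest probe sets, and a pair of myeloid genes that varied between arrays. Hlf lies at chr11:90390918-90391167, minus strand, Kit at chr5:75574737-75574986, plus strand, Cd34 at chr1:194938571-194938820, plus strand, Rps28 at chr17:33824563-33824812, minus strand, S100a8 at chr3:90668821-90669070, plus strand, and Mcpt8 at chr14:56085198-56085447, minus strand.
Hlf: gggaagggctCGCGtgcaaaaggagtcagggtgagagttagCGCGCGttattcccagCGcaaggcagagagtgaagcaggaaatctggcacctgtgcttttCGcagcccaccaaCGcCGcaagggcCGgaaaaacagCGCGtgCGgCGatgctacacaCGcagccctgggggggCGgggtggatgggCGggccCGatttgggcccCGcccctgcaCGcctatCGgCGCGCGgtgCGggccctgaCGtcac
Kit: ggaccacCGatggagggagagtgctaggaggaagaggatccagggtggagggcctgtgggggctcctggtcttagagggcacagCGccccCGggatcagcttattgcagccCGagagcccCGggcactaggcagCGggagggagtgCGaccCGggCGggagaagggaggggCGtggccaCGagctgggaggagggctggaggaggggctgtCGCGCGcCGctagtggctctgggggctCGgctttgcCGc
Cd34: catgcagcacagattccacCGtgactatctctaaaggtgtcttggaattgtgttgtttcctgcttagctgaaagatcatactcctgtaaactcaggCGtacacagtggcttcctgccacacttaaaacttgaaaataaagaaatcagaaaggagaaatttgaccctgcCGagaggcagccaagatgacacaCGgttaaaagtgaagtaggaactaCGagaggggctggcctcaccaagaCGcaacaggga
Rps28: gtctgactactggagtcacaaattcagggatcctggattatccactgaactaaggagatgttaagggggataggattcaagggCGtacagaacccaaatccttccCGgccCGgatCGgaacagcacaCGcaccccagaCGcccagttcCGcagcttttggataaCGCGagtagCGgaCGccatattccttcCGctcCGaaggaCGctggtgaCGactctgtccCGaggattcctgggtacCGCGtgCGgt
S100a8: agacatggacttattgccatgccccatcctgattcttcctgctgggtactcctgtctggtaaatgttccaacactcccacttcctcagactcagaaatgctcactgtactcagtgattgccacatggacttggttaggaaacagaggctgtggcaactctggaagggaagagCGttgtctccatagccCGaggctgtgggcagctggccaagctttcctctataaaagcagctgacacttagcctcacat
Mcpt8: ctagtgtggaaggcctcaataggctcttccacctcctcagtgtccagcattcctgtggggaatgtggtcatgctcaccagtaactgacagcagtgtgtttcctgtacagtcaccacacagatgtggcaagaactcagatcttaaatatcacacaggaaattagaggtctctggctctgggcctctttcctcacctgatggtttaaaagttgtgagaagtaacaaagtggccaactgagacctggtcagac

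The window of Hlf held 26 CG dinucleotides, Rps28 19, Kit 17, Cd34 6, S100a8 2 and Mcpt8 none. Mllt3, not printed, had 23. Among the protein-coding genes above the mark on all 4 arrays the median was 16, against 14 in 6511 genes above it on 1 to 3 arrays and 4 in 6005 genes above it on none. The ratio of observed to expected CG had medians of 0.738, 0.685 and 0.278. Within the genes above on all 4 arrays, the median count was 13 in the dimmest quartile and 17 in each of the other 3 quartiles of signal. The CpG difference thus lay mostly between genes never above the mark and the rest. Olfr genes were not left out, and the mark, set by their own probe sets, places most of them in the group above on none. The contrast with that group is therefore not independent of how the mark was set.

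3 short motifs were searched on both strands in the same windows. GGGCGG, the core of the GC box bound by Sp1, occurred in 57.6% of the protein-coding genes above on all 4 arrays, 55.3% of those above on 1 to 3 and 28.0% of those above on none. It occurred in 45.1% of all measured protein-coding genes and in 32.7% of all 32841 promoters in the table. The genes above on all 4 arrays were thus close to those above on 1 to 3, and both were apart from those above on none. Here too the mark itself places most Olfr genes in the group above on none. TATAAA, the TATA box core, occurred in 7.36%, 7.66% and 18.7% of the 3 groups, 11.9% of the measured genes and 12.4% of all promoters. CCAAT occurred in 35.5%, 36.2% and 35.5% of the 3 groups, 35.8% of the measured genes and 33.9% of all promoters. GGGCGG can overlap a counted CG. A match is only the presence of these letters.

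**Figure D1:**
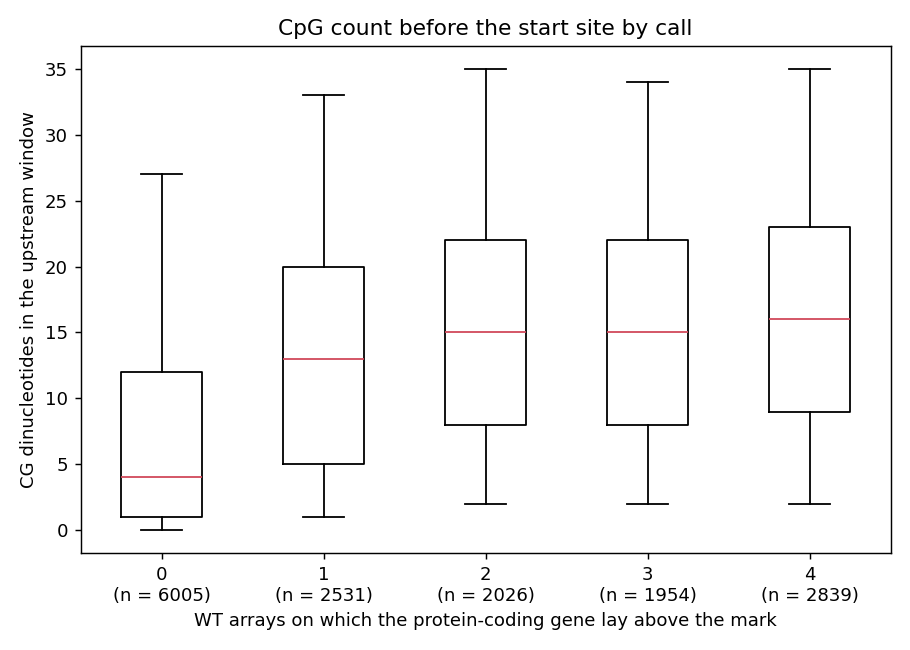
CG dinucleotides in the 250 bases before the start site of protein-coding genes (y axis), grouped by the number of WT arrays on which the gene lay above the olfactory receptor mark (x axis). Boxes span the quartiles with the median in red and whiskers the 5th to 95th percentiles. The median is 4 for 6005 genes above on none and 16 for 2839 genes above on all 4. Olfactory receptor genes were not left out, and the mark places most of them in the group above on none.

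Gene lists differed in the same feature. The spliceosome list had a median of 19.5 CG in 52 windows, and the mitosis list 19 in 19. The granulocyte and monocyte list had 2.50 in 10 windows although 6 of its 10 genes lay above the mark on all 4 arrays. The megakaryocyte list had 2 in 6 windows. Vomeronasal receptors had 1 in 258 windows, and 31.4% of those windows held TATAAA anywhere on either strand. None held it in the short stretch close before the start, and their median GC content was 36.4%. Lists with sequences for under 80% of their measured genes, among them the HSC regulators and the ribosomal proteins, were not summarised.

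The 25 named genes of highest mean signal were led by the protein synthesis machinery: 15 encode ribosomal proteins. Rplp1, a protein of the ribosomal stalk, was brightest (13.01 ± 0.16), with 9191, 8614, 7036 and 8360.0. B2m, the invariant partner of MHC class I, followed with 8265, 6636, 7368 and 7983. ND3, a mitochondrially encoded subunit of complex I, had 6579, 7033, 7221 and 6982. ND3 was even between arrays (SD 0.06), B2m was lowest on WT replicate 2, and Rplp1 lowest on WT replicate 3.

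Ribosomal proteins of the large subunit in the 25 were Rplp1, Rpl28, Rpl41, Rpl35, Rpl13, Rpl21, Rpl38, Rpl32, Rpl27, Rpl4 and Rpl29. Those of the small subunit were Rps12, Rps18, Rps28 and Rps29. The other genes were CYTB, the mitochondrial cytochrome b; Rn7sk, the RNA that holds the elongation factor P-TEFb inactive; Eif4a1, the RNA helicase of translation initiation; Hnrnpk, an RNA-binding protein; Atp5e, a subunit of ATP synthase; Mif, a cytokine; Erdr1; and Cnbd2. Their SDs ran from 0.03 to 0.57, with a median of 0.15. All 25 also lay above the mark on all 3 Ahr-KO arrays, and 18 were among the 25 brightest genes there.

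Brightness was not evenness. Atp5e had 6521, 2606, 3938 and 5109, highest on WT replicate 1 and lowest on WT replicate 2. Mif had 6424, 3758, 3279.9 and 4445, also highest on WT replicate 1. Rps12 had 4197, 4438, 8156 and 5401, and Rpl32 had 5518, 5346, 3386 and 5203. WT replicate 3 had the lowest Rpl32 value and the highest Rps12 value, but the latter in this probe set alone. Another probe set of Rps12 with nearly the same mean had 5366, 5399.6, 4781 and 5603, lowest on WT replicate 3. A further 6, with identical values, had 3520.4, 3617, 3542 and 3656 and were nearly level.

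Some places among the 25 rest on the choice of probe set. Cnbd2, a cyclic nucleotide binding domain gene, had 4505, 4916, 3938 and 4051 in its brightest probe set. Its other 2 probe sets had values from 7.62 to 27.2, below the mark on all 4 arrays. Rps28 had a second probe set at 1.44, 46.5, 29.1 and 42.6, above the mark on 2 arrays. Rpl21, Rpl35 and Rps18 each had other probe sets that were not above it on every array. Where probe sets of 1 gene disagree in this way, the table does not say which follows the gene. Rn7sk was read alike by both of its probe sets, with means of 12.67 ± 0.08 and 12.65 ± 0.12, and Gapdh by 2 of its 3, with 11.91 ± 0.12 and 11.82 ± 0.12. With the mean of all probe sets of a gene, 14 of the 25 stayed among the brightest.

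**Figure D2:**
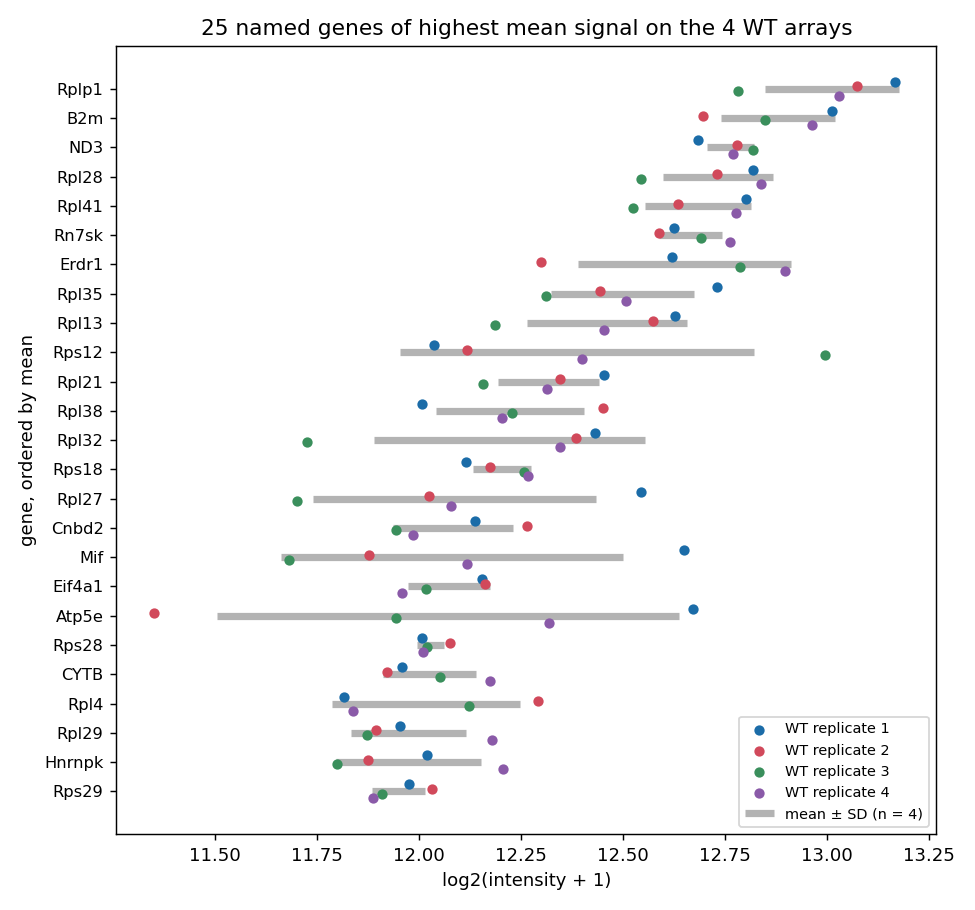
Signal of the 25 named genes of highest mean on the 4 WT arrays. The x axis is log2(intensity + 1), each point is 1 array coloured by replicate, and grey bars are the mean ± SD (n = 4); Rplp1 stands first at 13.01, and Atp5e and Rps12 have the widest spread.

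42 gene classes were then read by the share of their measured members above the mark on all 4 arrays, against 17.1% of all genes. 28 classes were above that share and 14 below it. No test was made, because the classes were chosen with results of these data known. The 28 are described first, by function.

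Translation and its supply were widely above the mark. Of 68 cytosolic ribosomal protein genes, 53 (77.9%) lay above on all 4 arrays, and the median of their means was 11.05, against 4.63 for all genes. Rpl5 and Rps16, chosen here after their values were seen, lay below the mark on all 4 arrays. Rpl5 had 4.49, 6.17, 3.51 and 12.6, and Rps16 had 12.4, 1.31, 0.01 and 16.6. Each had 1 probe set under its name alone. Rows naming several genes or none were not searched for a second reading of them. Of 63 translation factors, 39 (61.9%) lay above; Eef1a1, which brings aminoacyl-tRNA to the ribosome, had 2101, 2442, 3569.6 and 2732. Eef2, the translocase, had 2103, 2372, 2359.5 and 2697. Of 60 spliceosome, SR and hnRNP genes, 45 (75.0%) lay above, with Snrpg, a core snRNP protein, at 2408, 2327, 1996 and 1991.

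Genes of energy metabolism came next. All 10 genes of the mitochondrial genome lay above on all 4 arrays (100%), with a median SD of 0.18. Of 76 nuclear genes of the respiratory chain and ATP synthase, 61 (80.3%) lay above. Atp5l, an ATP synthase subunit, had 3154, 3018, 2958 and 2662, and Cox6a1, a subunit of cytochrome c oxidase, had 3679, 1916, 2154 and 3548. Of 21 genes of the tricarboxylic acid cycle, 11 (52.4%) lay above, among them Mdh2, malate dehydrogenase, at 1959, 1374, 1006 and 1643. Of 17 glycolytic genes, 7 (41.2%) lay above. Against the 99th percentile of Olfr the shares were 28.6% for the tricarboxylic acid cycle and 41.2% for glycolysis, so their order rests on the mark. Gapdh was even at 3668, 3840.0, 3579.6 and 4316, whereas Pkm, the pyruvate kinase, had 332, 1089, 438 and 1749.9 and Ldha, lactate dehydrogenase, 352, 257, 322 and 898. Mitochondrial ribosomal proteins reached 46.5% (33 of 71), below the share of their cytosolic counterparts.

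The 4 arrays ordered these groups differently. Of the 76 respiratory chain genes, 40 had their highest value on WT replicate 1 and 34 their lowest on WT replicate 2. Over all genes, 24.7% were highest on WT replicate 1 and 32.7% lowest on WT replicate 2. The mitochondrial genome went otherwise: 9 of its 10 genes were highest on WT replicate 3 and 7 lowest on WT replicate 1. These genes are transcribed together as long precursors, so they are not 10 independent readings.

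Cytoskeleton, antigen presentation and protein turnover were also above the background share. Of 18 genes of actin and thymosins, 17 (94.4%) lay above on all 4 arrays, led by Cfl1, which severs actin filaments (3159, 3022, 2417 and 2905), and Actb (2671, 2122, 2434 and 2443). The exception was Tpm4, a tropomyosin, with 8.53, 37.9, 8.61 and 33.4. Of 12 MHC class I genes and partners, 10 (83.3%) lay above, with H2-K1, a classical class I heavy chain, at 1303, 1475, 1469.7 and 1632. Of 38 proteasome subunits, 27 (71.1%) lay above, led by Psmb8, an immunoproteasome subunit, at 1055, 748, 1426 and 1294. Heat shock and chaperonin genes reached 41.1% (30 of 73). Hspa8, a constitutive chaperone, had 4262, 3279, 3516 and 3978, and Hsp90aa1 an even 1030.4, 1020.4, 972 and 1134.

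Genes of the cell cycle were present in part. Of 21 mitosis genes, 10 (47.6%) lay above the mark on all 4 arrays. Against the 99th percentile of Olfr, 2 (9.52%) did, beside 7.19% of all genes. Ccnb2, a cyclin of mitotic entry, had 278, 524, 489 and 191. Top2a, a topoisomerase of dividing cells, had 354, 172, 139 and 97.7, and Cdk1, the mitotic kinase, 502, 108, 169 and 71.9. Both were highest on WT replicate 1 and lowest on WT replicate 4. Cdc20, an activator of the anaphase-promoting complex, had 343, 116, 613 and 35.5, just above the mark on WT replicate 4. Of 23 DNA replication genes, 9 (39.1%) lay above. Mcm6, a subunit of the replicative helicase, had 951, 366, 917 and 1040.4, and Pcna, the polymerase clamp, 988, 328, 634 and 585. Both were lowest on WT replicate 2, as were 12 of the 23 genes, against 32.7% of all genes. Without that array 16 of 23 lay above, against 22.7% of all genes.

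Genes tied to quiescence were nearer the background share, with 4 of 18 (22.2%) above on all 4 arrays. These included Foxo3, a factor of HSC quiescence, at 225, 154, 259 and 224, and Foxo1, a related factor, at 107, 79.1, 69 and 71.1. Another probe set of Foxo1 had 25.6, 118, 16.1 and 23.3, above the mark on WT replicate 2 alone. Cdkn2a, a CDK inhibitor locus, had 240.0, 713, 249 and 229, with WT replicate 2 high. Cdkn1a, which encodes the inhibitor p21 and was chosen after its values were seen, lay below the mark on all 4 arrays, with 15.7, 8.82, 5.34 and 12. The RNA of a sorted pool does not tell how many cells cycled: fewer cells with a transcript and less of it per cell cannot be told apart.

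Immediate early genes reached 56.2% (9 of 16). Egr1, a zinc finger factor that also marks quiescent HSCs, had 402, 1126, 516 and 489.8. Jund, an AP-1 subunit, had 2584, 208, 439 and 420.0, Zfp36, which destabilises mRNA, 1838, 552, 1134 and 817, and Ier3, an early response gene, 1419, 272, 351 and 763. Jund, Zfp36 and Ier3 were highest on WT replicate 1, as were 12 of the 16 genes of the list, against 24.7% of all genes. Egr1 went the other way and was highest on WT replicate 2. Summed over the list, intensity came to 9294 on WT replicate 1 and to 2863 to 4259 on the other 3.

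Histone genes reached 34.0% (16 of 47). H2ax, the variant phosphorylated at DNA breaks, had 3428, 2809.9, 1178 and 2551, and H4c12 had 1662, 1661, 2127 and 1232. The list mean was highest on WT replicate 1. Small nucleolar RNA genes reached 30.8% (24 of 78) with the wide median SD of 1.49. Snord104 had 1711, 1987, 1832 and 2762. Scarna10, a small Cajal body RNA, had 6000.2, 297, 250.4 and 6851, so WT replicates 1 and 4 stood apart from WT replicates 2 and 3.

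**Figure D3:**
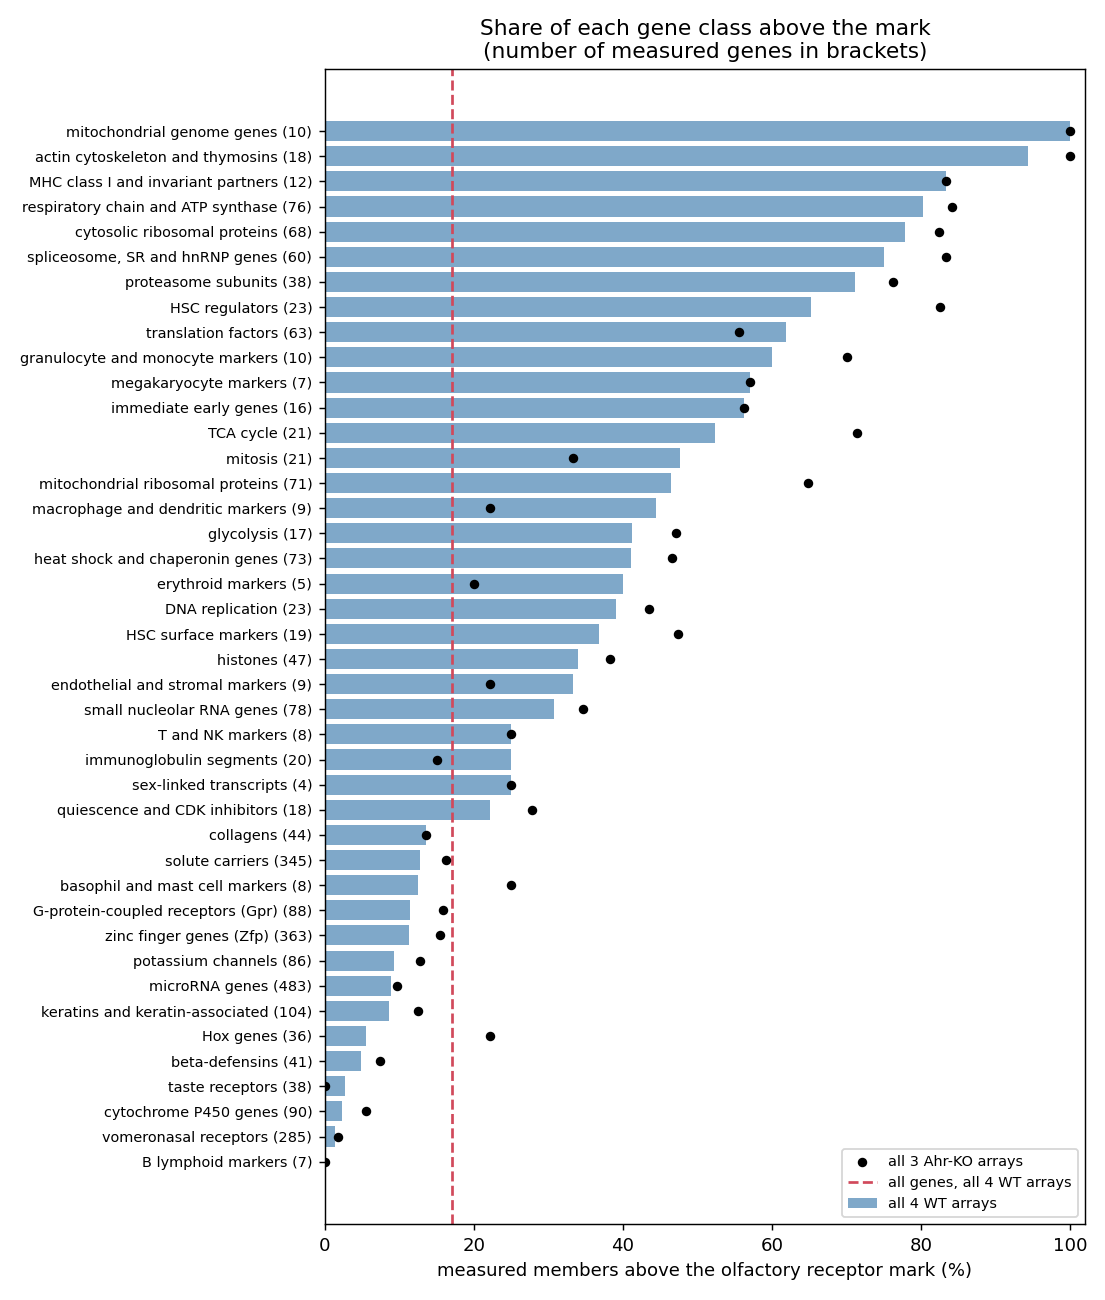
Percentage of measured members (x axis) of 42 gene classes (y axis, number of genes in brackets) above the olfactory receptor mark. Bars stand for all 4 WT arrays, black points for all 3 Ahr-KO arrays, and the dashed line for 17.1% of all genes on the WT arrays (21.8% on the Ahr-KO arrays); mitochondrial genome genes reach 100% and B lymphoid markers 0%.

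The remaining 14 classes lay below the background share. Taste receptors reached 2.63% (1 of 38). Vomeronasal receptors, which sense pheromones, reached 1.40% (4 of 285), and cytochrome P450 genes, oxidases of liver and other tissues, 2.22% (2 of 90). Both of these counts moved with single arrays: 7 vomeronasal receptors were above without WT replicate 1 or without WT replicate 3, and 5 cytochrome P450 genes without WT replicate 1 and 4 without WT replicate 2. Beta-defensins, epithelial antimicrobial peptides, reached 4.88% (2 of 41), and keratins 8.65% (9 of 104). Potassium channels reached 9.30% (8 of 86), collagens 13.6% (6 of 44), solute carriers 12.8% (44 of 345) and the Gpr receptors 11.4% (10 of 88). Zinc finger genes of the Zfp series, although a class of transcription factors, reached 11.3% (41 of 363).

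A few members of these families were bright. Vmn1r233, a vomeronasal receptor gene, had 2133, 2194, 4026 and 2379 in 1 probe set and 6, 5.57, 4.16 and 3.84 in another, which lay below the mark on all 4 arrays. Krt18, a keratin of simple epithelia, had 1029.8, 393, 422 and 447, highest on WT replicate 1, and its other probe set lay above the mark on 3 arrays. Adgrg1, an adhesion receptor known from HSCs, had 1290.2, 959, 1352 and 1909.6. Gpr171, a receptor of hematopoietic cells, had 567, 537, 801 and 741, and its other probe set was above the mark on all 4 arrays too. Slc25a5, the mitochondrial ADP/ATP carrier, had 1013, 518, 190.3 and 803, lowest on WT replicate 3.

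Hox genes were mostly not above the mark on every array. Of 36 measured Hox genes, 2 (5.56%) lay above the mark on all 4 arrays: Hoxd8 with 80.2, 217, 57.6 and 48.8, and Hoxd3, outside the rule for named genes, with 57, 98.2, 62.6 and 95.2. Hoxa9, used above as a regulator, lay below on WT replicate 2. Hoxb4, a gene that expands HSCs when overexpressed, lay below on WT replicate 2 as well, with 115, 37.2, 214 and 57.9. Without WT replicate 2, 7 of the 36 (19.4%) lay above on the other 3 arrays, beside 22.7% of all genes. On the 3 Ahr-KO arrays 22.2% of the Hox genes lay above on all, near the 21.8% of all genes there.

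Of 483 measured microRNA genes, 43 (8.90%) lay above the mark on all 4 arrays. These values are signals of probe sets annotated to the microRNA gene. Whether precursor, mature or host RNA gave the signal was not tested. RefSeq (GRCm38.p6) gave mature sequences for 32 of the 43, and those shown here belong to the bright or even ones, 5′ to 3′ with the seed (bases 2 to 8) in capitals. No 2 of the mature forms matched among the 43 shared a seed.
mmu-miR-5125: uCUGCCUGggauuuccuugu
mmu-miR-665-3p: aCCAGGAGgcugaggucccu
mmu-miR-692: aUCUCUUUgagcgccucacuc
mmu-miR-1964-3p: cCGACUUCugggcuccggcuuu
mmu-miR-1191a: cAGUCUUAcuauguagcccua

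The first lies at chr17:23823339-23823358, plus strand, the next at chr12:109586368-109586387, plus strand, then chr17:6895259-6895279, minus strand, chr7:29773344-29773365, plus strand, and chr7:27205615-27205635, plus strand. The gene Mir5125 had 1771, 2467, 1108 and 1432 and Mir665 had 916, 1396, 1876 and 1289.7, and 916 was the lowest of these 8 values. Mir692-1, chosen after its values were seen, was even, with 1018, 1121, 1059 and 1193. Mir1964 had 519.6, 573, 539 and 542 and Mir1191 had 63.8, 62.8, 64.1 and 60.2, and both were among the 12 steadiest genes. Mir5099, the brightest of the class (11.24 ± 0.28), and Mir449b (10.26 ± 0.11) are named only. Mir34b was the opposite case: 73.7, 67.4, 4749.9 and 25.8, with WT replicate 3 alone high and WT replicate 4 below the mark.

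Steadiness was then read among the 3790 genes above the mark on all 4 arrays, whose median SD was 0.64. SD depended on signal, with medians of 0.47, 0.84, 0.83 and 0.51 from the dimmest to the brightest quartile. Among dim genes the requirement to exceed the mark on every array itself limits how far a value can fall. The 12 steadiest named genes had SDs of 0.03 to 0.07; another 3 genes with predicted names were as steady.

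Abcf2, an ABC-family ATPase without a transport domain, was steadiest, with 214, 217, 207 and 211. Rps28, a ribosomal protein of the small subunit, had 4113, 4318, 4153 and 4122, whereas its other probe set had an SD of 2.03. Plk2, a polo-like kinase, had 74.1, 77.5, 75 and 71.3. None of these 3 genes had an array apart from the rest. Bhlhe41, a clock-linked repressor, had 86, 85.9, 85.3 and 92, with WT replicate 4 a little above 3 nearly equal values. Ptma, which encodes prothymosin alpha, had 799.8, 806, 816 and 877. The remaining ones were Mir1191, Shisa4, ND3, Mir1964, Slc2a8, Rps29 and Prrg1. Probe sets outside the rule could be steadier: those of Rps12 with identical values had an SD of 0.0255, against 0.0287 for Abcf2.

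The steadiest genes of each quartile of signal showed whether a low SD recurred on the 3 Ahr-KO arrays, which had no part in the choice. In the brightest quartile Rps28 had an SD of 0.03 there and ND3 of 0.09. Aldh3b2, an aldehyde dehydrogenase of the second quartile, had 136, 157, 136 and 145 in WT and an SD of 0.11 in Ahr-KO. H4c17, a histone gene of the third quartile, had an SD of 0.09 in WT and 0.18 in Ahr-KO. These were 4 of the 12 genes, 3 from each quartile. The other 8 had SDs in Ahr-KO from 0.405 to 2.71, and they included all 3 of the dimmest quartile, Mir1191, Plk2 and Shisa4, with 0.55, 0.48 and 0.57. Abcf2 had the highest of these, and Eif2a, a translation initiation factor, had 0.10 in WT and 2.04 in Ahr-KO.

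Over whole groups, the steadiest decile by WT arrays (379 genes) had a median Ahr-KO SD of 0.35, against 0.64 in the other 3411 genes. Within the brightest quartile the medians were 0.19 and 0.46. In the dimmest quartile they were 0.47 and 0.57. Spearman's rho between WT and Ahr-KO SDs across the 3790 genes was 0.311, and 0.226, 0.239, 0.181 and 0.389 by quartile, given as descriptions across genes. Steadiness of single genes was tied to the scaling of the arrays. After each array was centred on its median, none of the 12 remained among the 12 steadiest, and after quantile normalization 3 did. Leaving out 1 array kept 1 to 5 of the 12.

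Classes were described by the median SD of their genes, which was recomputed under both normalizations but not with an array left out. The median SD of all genes was 0.84, and that of the brightest quartile of genes above the mark on all 4 arrays was 0.51. The mitochondrial genome had 0.18, cytosolic ribosomal proteins 0.26, and the actin class 0.33. Under quantile normalization these SDs were 0.19, 0.24 and 0.35, and after median centring 0.20, 0.30 and 0.36. The 3 classes were bright, with median levels of 11.46, 11.05 and 9.77. How far their low SD goes with their signal was not tested. The granulocyte and monocyte markers lay at the other end with 1.98, which became 2.05 under both.

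**Figure D4:**
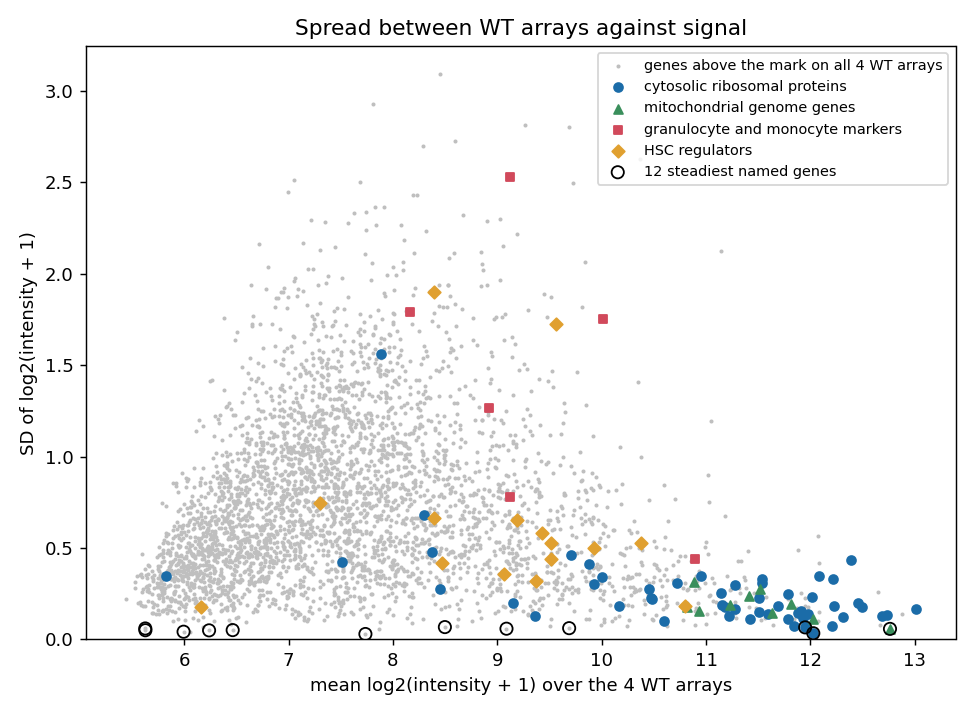
SD against mean of log2(intensity + 1) over the 4 WT arrays for 3790 genes above the mark on all 4 (grey points). Coloured symbols mark cytosolic ribosomal proteins, mitochondrial genome genes, granulocyte and monocyte markers and HSC regulators, and open circles the 12 steadiest named genes; ribosomal and mitochondrial genes lie at the lower right and granulocyte markers reach an SD of 2.53.

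The 10 most uneven genes among the brightest decile differed by array. Hoxb6, a Hox gene, had the widest spread, with 2.28, 19583, 92.6 and 5364. The WT replicate 2 value is the largest of the 4 by far, and WT replicate 1 was near 0. Tmub1, a ubiquitin-like membrane protein, was high on WT replicate 1 alone, with 7909, 21.6, 91.6 and 62.6. Usp36, a deubiquitinase of the nucleolus, was high on WT replicate 3 alone, with 134, 20.1, 5631 and 193. Serinc1, a membrane protein, had 2566, 4.50, 197 and 265, Lsm2, an RNA-binding subunit of the Lsm ring, 1571, 14.2, 1037 and 1325, Copb1, a coat protein of Golgi vesicles, 382, 5.14, 238 and 1250.5, and Ppat, an enzyme of purine synthesis, 990.5, 7.33, 177 and 763. These last 4 genes shared a low value on WT replicate 2. Tmub1 and Usp36 were also lowest there, and it was the only array on which they lay below the mark. The others were Mir34b, S100a8 and Mcpt8.

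Markers of other blood cells that a sorted fraction could hold were read gene by gene. Of 10 granulocyte and monocyte markers, 6 (60.0%) lay above the mark on all 4 arrays, beside 17.1% of all genes. S100a8, a calcium-binding protein of neutrophils, had 5.97, 4237, 2323 and 1298. S100a9, its partner, had 47, 2685, 1309 and 573. Mpo, the granule peroxidase, had 186, 3284, 1217 and 1509. Elane, neutrophil elastase, had 46, 697, 592 and 342. WT replicate 1 was lowest and WT replicate 2 highest on each of these 4 genes.

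The same order held for all 10 markers: each was lowest on WT replicate 1 and highest on WT replicate 2. Over all genes, 24% were lowest on WT replicate 1 and 24.6% highest on WT replicate 2. The summed intensity of the list was 2203, 19499, 8141 and 7139. Lyz2, lysozyme of myeloid cells, varied less, with 1412, 2579.6, 1509 and 2351. Ngp and Camp, granule proteins of later neutrophil stages, were at or near 0 on WT replicate 1. Ngp had 0.04, 2837, 79.8 and 7.73, and Camp had 0.16, 589.8, 34 and 2.98. Ltf, lactoferrin, had 7.25, 207, 12.2 and 10.2, above the mark on WT replicate 2 alone. The 3 Ahr-KO arrays had 7 of the 10 markers above the mark on all, beside 21.8% of all genes. Early granule genes such as Mpo, Elane, Ctsg and Prtn3 are also transcribed in progenitors, so the list is not exclusive to mature granulocytes. The part of such cells in other values was not tested.

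Of 8 basophil and mast cell markers, 1 (12.5%) lay above on all 4 arrays, beside 17.1% of all genes. It was Gata3, a factor of several lineages, with 80.8, 49.7, 44.4 and 81.7. Another probe set of Gata3 had 16.6, 10.8, 12.5 and 26.6, below the mark on all 4 arrays, and none of the 8 was called when the dimmest probe set of each gene was taken. Mcpt8, a basophil protease, had 3.76, 773, 1352 and 664. Cpa3, a mast cell carboxypeptidase, had 25.6, 1670.1, 15.5 and 95.3, and Prss34, another protease, 6.10, 416, 71.6 and 132. Without WT replicate 1, 3 of the 8 lay above on the other arrays, beside 19.2% of all genes. All 3 proteases were below the mark on WT replicate 1, and their high array was WT replicate 2 or 3. Ms4a2, Cma1 and Tpsb2 lay below on all 4 arrays, and Tpsb2 was listed at 0 on WT replicate 1. The summed intensity of the list was 193.0, 2983, 1559 and 1040.

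Of 7 B lymphoid markers none lay above the mark on all 4 arrays, and 4 (57.1%) lay below on all, beside 17.1% and 42.7% of all genes. Cd79b, a B cell receptor chain, had 38.3, 146, 33 and 169, and Cd79a, its partner, 2.14, 41.2, 7.41 and 14.2. Pax5, which fixes B cell identity, had 31.6, 46.1, 25.5 and 25.2, above the mark on WT replicate 2 alone. Ighm, the heavy chain constant region of IgM and a member of the immunoglobulin list, had 47, 3823, 1866 and 1337. WT replicate 1 was lowest here too. Of its 6 other probe sets, 3 were lowest on WT replicate 1, such as one with 37.7, 317, 507 and 2058, and 3 were lowest on WT replicate 2 or 4, such as one with 9.89, 7.40, 16.1 and 8.74. None of the 6 lay above the mark on all 4 arrays. The summed intensity of the 7 B lymphoid markers was 160.3, 295.8, 170.9 and 284.5.

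Of 8 T and NK markers, 2 (25%) lay above the mark on all 4 arrays and 5 (62.5%) on none, beside 17.1% and 42.7% of all genes. The 2 were Nkg7, a protein of cytotoxic granules, with 79.2, 394, 159.7 and 175, and Cd3e, a chain of the T cell receptor complex, with 75.9, 92.5, 74.7 and 65.7. Against the 99th percentile of Olfr, none of the 8 lay above on all 4 arrays, beside 7.19% of all genes. The list of 8 summed to 233.2, 652.5, 353.9 and 313.4. Of 9 macrophage and dendritic markers, 4 (44.4%) lay above, beside 17.1% of all genes. Against the 99th percentile of Olfr, 1 (11.1%) did, beside 7.19% of all genes. H2-Eb1, a chain of MHC class II, had 170.1, 441, 228 and 159.6, and H2-Ab1, another, had 180.0, 77.8, 169.8 and 555. Adgre1, which encodes F4/80, and Csf1r, the receptor of macrophage colony-stimulating factor, lay below on all 4 arrays. Their list summed to 751.2, 799.5, 647.9 and 1127.

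Erythroid and megakaryocyte genes were present in part. Of 9 listed erythroid markers only 5 were measured, and 2 of these 5 (40.0%) lay above on all 4 arrays. Of all genes, 17.1% lay above on all 4 arrays. Car2, a carbonic anhydrase found in several cell types, had 948, 1337, 1209.7 and 1259.5. Car1, the erythroid form, had 73.6, 483, 119.9 and 208. Gata1, the master factor of the lineage, was above the mark on WT replicate 2 alone, with 10.3, 1299, 12.5 and 29.8. Klf1, an erythroid factor, was below the mark on all 4, with 28.4, 8.32, 28.7 and 12.4. Of 7 megakaryocyte markers, 4 (57.1%) lay above, among them Pf4, platelet factor 4, with 1565, 170.1, 731 and 865, and Gp9, a subunit of the von Willebrand factor receptor, with 358, 673, 1566 and 494. Gp6, the platelet collagen receptor, lay below the mark on all 4. The erythroid list summed to 1130, 3127, 1392 and 1532 and the megakaryocyte list to 2351, 1032, 2612 and 2380, so WT replicate 2 was highest in one and lowest in the other.

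Of 9 endothelial and stromal markers, 3 (33.3%) lay above the mark on all 4 arrays, beside 17.1% of all genes. Against the 99th percentile of Olfr none did, beside 7.19% of all genes. Cxcl12, the niche chemokine, had 85.8, 109, 224 and 1042, highest on WT replicate 4. Emcn, an endothelial sialomucin also found on HSCs, had 88.7, 167, 174 and 349, and Col1a2, a collagen chain, 47.2, 398, 186 and 341. The second probe set of Col1a2 was above the mark on 3 arrays. Cdh5, the endothelial cadherin, was above it on 2 arrays (5.38, 51.3, 68.8 and 30.2). The list summed to 319.6, 847.4, 1175 and 2076. For none of these lists was its part in the levels of other genes tested.

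**Figure D5:**
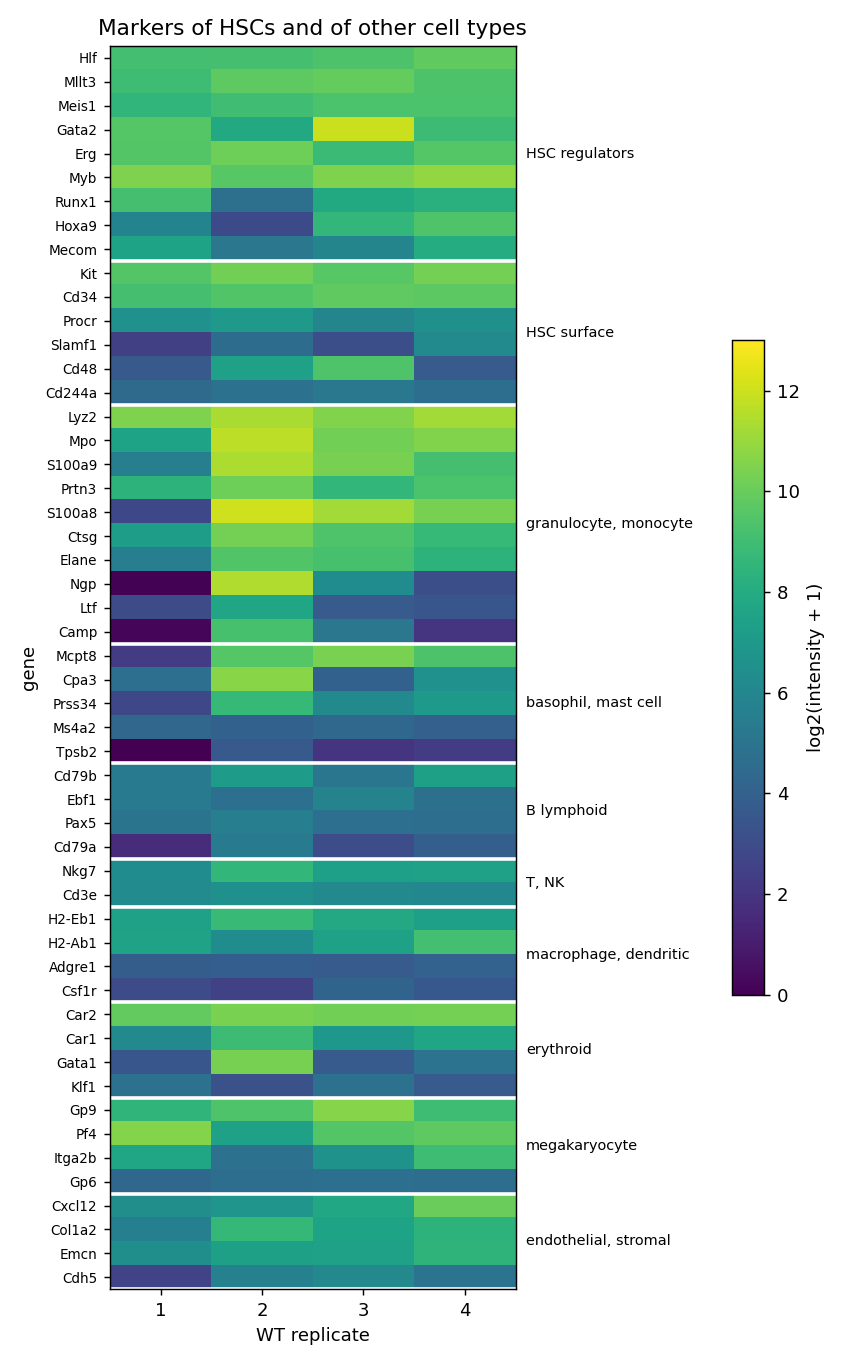
log2(intensity + 1) on the 4 WT arrays (columns) for selected markers of HSCs and progenitors and of other cell types (rows, grouped), with the colour scale from 0 to 13. Hlf, Kit and Cd34 are bright in every column, whereas the granulocyte and monocyte genes are darkest in WT replicate 1 and brightest in WT replicate 2. Of the T and NK markers, only the 2 above the mark on all 4 arrays are drawn.

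Sex-linked transcripts gave the same reading on all 4 arrays. Xist, the RNA of the inactive X chromosome, had 1212, 829.2, 1763 and 1660.4. Uty, Kdm5d and Eif2s3y, genes of the Y chromosome, lay below the mark on all 4 arrays, with at most 13.2 for Kdm5d. Xist also lay above the mark on all 3 Ahr-KO arrays, and the 3 Y genes below.

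By kind of gene, 3443 of 18964 protein-coding genes (18.2%) lay above the mark on all 4 arrays, and 147 of 1926 long non-coding RNA genes (7.63%). Genes annotated as pseudogenes reached 29.8% (51 of 171), and those annotated as transcribed pseudogenes 10.4% (31 of 298), so that the protein-coding share lay between them. The table does not say how far their probe sets also bind the parent genes.

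The baseline carried over to the Ahr-KO arrays to a degree that the number of arrays allows. Of the 3790 genes above the mark on all 4 WT arrays, 3036 (80.1%) lay above on all 3 Ahr-KO arrays, against 21.8% of all genes. Another 551 (14.5%) lay above on 2, 166 (4.38%) on 1 and 37 (0.976%) on none. Of the 9468 genes above on no WT array, 7605 (80.3%) lay above on no Ahr-KO array, and 45 (0.475%) on all 3. The share of all genes above on no Ahr-KO array is not given here, so the 80.3% has no background beside it. The mark also keeps most Olfr genes below it on both sets of arrays.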

How the data were processed

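RNA of SLAM-sorted HSCs was measured on 4 WT and 3 Ahr-KO 1-colour arrays. The authors deposited 1 linear intensity per probe set and array. The submitters' processing notes name Affymetrix Expression Console; their summarization, normalization and build were not given in the sources used here. Array number limits the precision.

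Of 41155 rows, 23521 had 1 gene symbol, 1814 several and 15820 none; 23328 matched RefSeq by Entrez ID. Of 22180 genes, 1082 had more than 1 probe set. Levels are log2(intensity + 1). A gene was called when above the 95th percentile of Olfr probe sets on each of 4 arrays, with no test. The alternative test was limma 3.58.1 (R 4.3.3), one-sided, with Benjamini-Hochberg adjustment at 0.05. The steps were tested on simulated arrays. Sequences are RefSeq's, GRCm38.p6.

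Members and lists were chosen with earlier results of these data known, and 4 list patterns were corrected after the symbols were seen. Of 278 listed symbols, 255 were measured; 17 genes stood in more than 1 of the 42 lists. Named genes were the 25 brightest, the 12 steadiest and 3 steadiest per quartile of signal, the 10 most uneven at or above the 90th percentile of signal, the 4 brightest of each list and any cell type marker. Predicted genes were counted and not named. Exceptions are Rpl5, Rps16, Tpm4, Cdkn1a, Hoxd3, Mir692-1, Dkkl1 and Csnk1g2.

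Alternatives were other marks, fewer arrays, other probe set rules, a pseudocount of 16, median centring, quantile normalization and each array left out.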

Additional observations from a re-analysis of the deposited data

Results flagged for a closer look

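In 214 groups of 4 WT values (named genes and class means), the gap between the outermost array and its nearest neighbour was compared with the whole range; above 0.829 of the range the array was taken as lying apart. Chance gives about 1 in 20, and 11 were found. WT replicate 2 lay apart at the low end for Mcm6 (366), Etv6 (377), Lsm2 (14.2) and the mean log2 level of MHC class I genes (8.18). It lay apart at the high end for Cdkn2a (713.0) and Ltf (207). WT replicate 1 lay apart at the low end for Mcpt8 (3.76), and at the high end for Krt18 (1030) and the mean log2 level of histones (5.83). WT replicate 3 lay apart for Rpl32 (3386, low), and WT replicate 4 for Bhlhe41 (91.95, high). In rows outside the gene comparisons, 1773 with no gene name here (11.2%) and 454 naming several genes (25%) lay above the mark on all 4 WT arrays.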

How the results depend on the processing

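The 3790 genes above the mark became 1595 with the 99th percentile of Olfr, 6351 when 3 arrays were enough, and 2519 by limma's one-sample test, 2518 of them among the 3790. Between 3540 and 5440 were called with the other marks and probe set rules, and 3944 to 5043 with 1 array left out. The 28 classes above the background share became 25 to 29 over all these settings. Of the 25 brightest genes, 14 stayed with the mean of all probe sets and 14 when rows naming several genes were added; 24 or 25 stayed under both normalizations and the other pseudocount, and 21 to 24 with 1 array left out. Of the 12 steadiest, 3 stayed under quantile normalization, 0 after median centring, 1 by SD relative to genes of like signal, 7 with the 99th percentile mark, and 1 to 5 with 1 array left out. Before median centring the array medians lay at -0.01, -0.19, 0.03 and 0.17 from their group mean (log2). Centring took these offsets away, so WT replicate 2 was raised and WT replicate 4 lowered. The counts of the 42 classes moved by over 1.5 times in 80 of 504 settings and class pairs, 28 of them under the 99th percentile. Of 168 gene levels, 26 moved by more than their SD with a pseudocount of 16 and 1 without WT replicate 2. No median SD of a class moved by over 1.5 times under either normalization, an alternative added after the data were seen. The causes were not tested. Probe sets below the mark have only an upper bound. No paired analysis was possible because no groups were compared and the description comes from no test.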
